A study of Mus musculus with 6 samples.

Results

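The genes described here are 10 genes of sphingosine 1-phosphate (S1P) and lysophosphatidic acid (LPA) signalling, taken by their symbols from the 24940 genes of an exon count table of cultured mouse hepatic stellate cells. They comprise 4 receptor genes (S1pr1, S1pr2, S1pr3 and Lpar1), 3 genes of enzymes that make the ligands (Sphk1, Sphk2 and Enpp2), 2 genes of enzymes that remove S1P (Sgpl1 and Sgpp1) and the exporter gene Spns2. The cells were isolated from female, wild-type C57BL/6JBomTac mice. In the OCA+VIP group (3 libraries) they received 10 µM obeticholic acid (OCA), a bile acid derivative used as an agonist of the nuclear receptor FXR, on day 2 after isolation, and vasoactive intestinal peptide (VIP, 500 nM), which acts through cAMP-raising receptors, was added 3 h later for a further 3 h. In the DMSO+VIP group (3 libraries) the vehicle DMSO took the place of OCA. VIP was given to all 6 samples, so OCA is compared with vehicle under VIP, and the effect of VIP alone was not analysed here. Separate mice or cultures are not named for the libraries of a group, so the spread that p-values measure may be technical.

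S1P is a lipid made inside cells when the sphingosine kinases SPHK1 and SPHK2 phosphorylate sphingosine. It leaves the cell through carriers such as SPNS2 and acts on G protein-coupled receptors at the cell surface, while the phosphatase SGPP1 returns it to sphingosine and the lyase SGPL1 cleaves it irreversibly. LPA is made outside cells by the secreted enzyme autotaxin, encoded by Enpp2, and acts on a related set of receptors that includes LPAR1. In stellate cells, the pericytes of the liver sinusoid, both lipids are known as stimuli of contraction, migration and growth.

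Promoter windows of 300 bases (250 before and 50 after a start site) were taken from RefSeq (GRCm38.p6) for 8 of the 10 genes, in 15 windows; those of S1pr1 and Enpp2 were not analysed here. Windows of 4 genes are shown because they belong to both sphingosine kinase genes, of which Sphk1 rose with OCA, to the most abundant receptor gene, S1pr3, and to S1pr2, which with Sphk2 holds a complete cAMP response element. Capitals mark the cAMP response element TGACGTCA or its core TGACG, the nuclear receptor hexamer AGGTCA and the GC box GGGCGG, each searched on both strands, so that a complete element also counts as 2 overlapping cores.
Sphk1, chr11:116532201-116532500, plus strand: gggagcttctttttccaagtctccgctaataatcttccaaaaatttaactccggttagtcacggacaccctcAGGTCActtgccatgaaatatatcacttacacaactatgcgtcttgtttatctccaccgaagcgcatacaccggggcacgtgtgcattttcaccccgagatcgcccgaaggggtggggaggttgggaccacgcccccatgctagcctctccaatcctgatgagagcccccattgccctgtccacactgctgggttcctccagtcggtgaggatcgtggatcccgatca
Sphk2, chr7:45717953-45718252, minus strand: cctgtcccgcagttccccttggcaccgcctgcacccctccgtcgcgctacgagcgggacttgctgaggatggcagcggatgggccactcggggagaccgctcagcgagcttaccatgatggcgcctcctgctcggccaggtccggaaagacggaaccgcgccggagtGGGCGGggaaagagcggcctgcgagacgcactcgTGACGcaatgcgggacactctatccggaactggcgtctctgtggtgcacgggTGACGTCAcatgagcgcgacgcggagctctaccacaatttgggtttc
S1pr3, chr13:51408368-51408667, plus strand: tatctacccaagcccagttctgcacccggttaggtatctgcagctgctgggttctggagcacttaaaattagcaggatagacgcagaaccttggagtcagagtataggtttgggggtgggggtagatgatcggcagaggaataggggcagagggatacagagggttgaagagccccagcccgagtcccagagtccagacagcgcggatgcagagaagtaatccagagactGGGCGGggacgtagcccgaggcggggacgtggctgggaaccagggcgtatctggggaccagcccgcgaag
S1pr2, chr9:20976744-20977043, minus strand: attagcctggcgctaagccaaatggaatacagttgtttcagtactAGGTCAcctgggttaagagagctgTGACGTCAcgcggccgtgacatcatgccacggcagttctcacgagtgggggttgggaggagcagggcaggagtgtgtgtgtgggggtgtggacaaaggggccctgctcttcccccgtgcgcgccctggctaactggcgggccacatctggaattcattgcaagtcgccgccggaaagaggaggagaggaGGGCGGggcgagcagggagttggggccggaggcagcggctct

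The complete cAMP response element began at offset -181 in the S1pr2 window and at offset 3 in the Sphk2 window, counted from the start site at 0, and it was present in 1.79% of all 32851 windows. The core TGACG was present in 20.8% of all windows, AGGTCA in 16.3% and GGGCGG in 35.7%. The Sphk1 window shown held AGGTCA at offset -178 and no GC box or cAMP core. Of the 5 Sphk1 windows, 2 that overlap each other, further upstream (starting at 116531587 and 116531661), held the core TGACG at 2 places, and another held AGGTCA in the same stretch as the window shown. The window shown is the listed Sphk1 start nearest to the counted transcript, whose first base lies 787 bases further downstream. The S1pr3 window held a GC box at offset -20 and none of the other motifs shown. An inverted repeat of AGGTCA spaced by 1 base, the form that FXR binds with RXR, was in 0.00913% of all windows and in none of the 15. Only its exact letters were searched, and so rare a string would hardly be met in 15 windows. Its absence therefore says nothing of inexact forms. These matches describe letters in the windows and say nothing of binding.

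Column totals were 4.53e+06 to 9.95e+06 counts in OCA+VIP libraries and 2.84e+06 to 4.57e+06 in DMSO+VIP libraries. Low counts pile up at multiples of about 6, so a library's smallest common step was worth 0.603 to 1.32 CPM (counts scaled to a column total of 1e+06) with OCA+VIP and 1.31 to 2.11 CPM with DMSO+VIP. All 10 stellate cell markers examined passed the filter on low counts; 3 were called higher with OCA (Dcn, Colec11 and Vipr1, log2 fold changes 0.98, 2.17 and 0.68), 3 lower (Hgf, Col1a1 and Des, -2.11, -1.79 and -0.52) and 4 neither. Their summed level was 711 to 826 CPM with OCA+VIP and 679 to 916 CPM with DMSO+VIP, and their part in the differences of the signalling genes was not tested. Among them, Lrat, which encodes the enzyme of retinyl ester storage, was low, at 4.77 to 13.2 CPM with OCA+VIP and 1.31 to 8.30 CPM with DMSO+VIP. Of the 11286 genes that passed the filter on low counts, 11.8% differed between the groups (5.72% higher and 6.04% lower with OCA) at an adjusted p under 0.05 in edgeR's quasi-likelihood test. A difference in RNA level can come from fewer cells of a type or from less RNA per cell, which cannot be told apart in these bulk samples.

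With OCA before VIP, RNA of the sphingosine kinase gene Sphk1 rose and that of the receptor gene S1pr1 was called lower. The call of Sphk1 held in all 15 alternative fits. That of S1pr1 was lost in 4 of the 6 fits that left out a library and in DESeq2, and its groups overlap. By edgeR, the other receptors of S1P, the second kinase gene, Sphk2, and both genes of S1P breakdown did not pass the test. In DESeq2, S1pr3 and Sphk2 passed (adjusted p = 0.042 and 0.033), while S1pr2 and the breakdown genes did not. Besides S1pr1 and Sphk1, the genes S1pr3, Sphk2 and the breakdown gene Sgpp1 had unadjusted edgeR p-values under 0.05 (0.016, 0.012 and 0.022). The share of all tested genes under that unadjusted threshold is not given here, so these p-values do not set the genes apart from others. Of the 10 genes, 7 passed the filter on low counts; 1 was called higher and 1 lower, and 5 did not pass, which stands against 5.72% higher and 6.04% lower among all tested genes. All 3 tested receptor genes had negative log2 fold changes (median -0.37), and 3 of 4 tested enzyme genes had positive ones (median 0.33), where the median of all tested genes was 0.00. Lpar1, Spns2 and Enpp2 had too few counts to be tested. The genes and these lists were chosen with earlier results of the same data known, so their counts are descriptions.

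**Figure D1:**
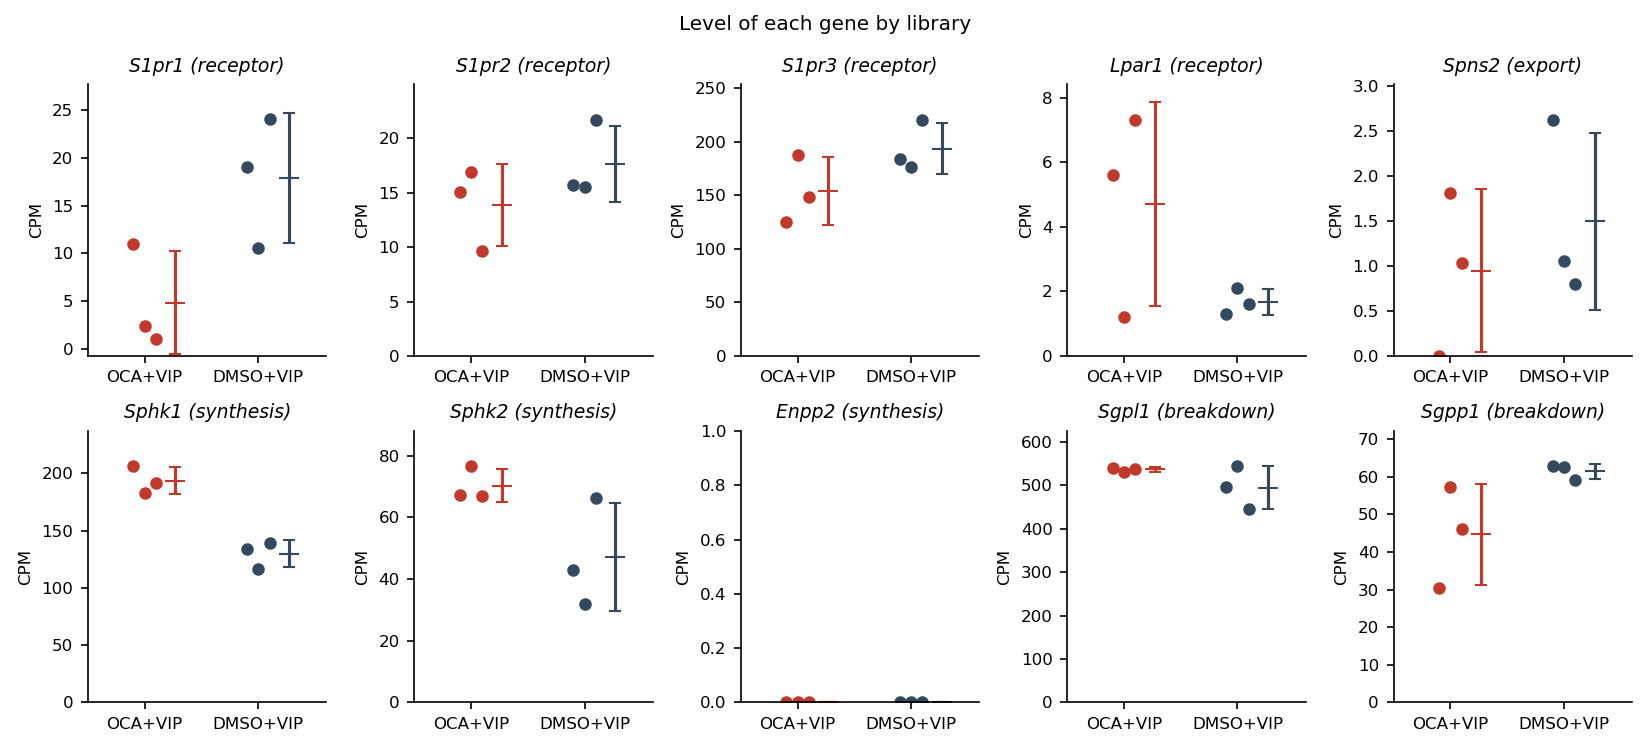
Level of each of the 10 genes in CPM, with 1 point per library (OCA+VIP left, DMSO+VIP right) and the mean with its SD beside the points (n = 3 per group). Sphk1 lies at 183 to 206 CPM with OCA+VIP, above all DMSO+VIP libraries, S1pr1 has 1 OCA+VIP library among the DMSO+VIP values, and Enpp2 is at 0 throughout.

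S1pr1 (chromosome 3, 115710433 to 115715055, minus strand, mm10) encodes the receptor S1P1, which couples to Gi proteins and is most abundant in endothelial cells. Its level was 11.03, 2.41 and 1.03 CPM in OCA+VIP libraries 1 to 3, against 19.0, 10.6 and 24.1 CPM in DMSO+VIP libraries 1 to 3. OCA+VIP libraries 2 and 3 lay far below every vehicle library, but OCA+VIP library 1 lay just above DMSO+VIP library 2, so the groups overlap. The means were 4.82 ± 5.42 CPM with OCA+VIP and 17.9 ± 6.84 CPM with DMSO+VIP (SD, n = 3 each), and the log2 fold change was -1.95 (SE 0.60, 95% interval -3.20 to -0.70, adjusted p = 0.037 by edgeR). The values rest on 80 counts over the OCA+VIP group and 207 over the DMSO+VIP group, or about 13 and 34 steps of 6. The call was lost by edgeR without OCA+VIP library 2 (adjusted p = 0.093) or 3 (0.15), without DMSO+VIP library 1 (0.12) or 3 (0.17), and in DESeq2 (adjusted p = 0.19). The log2 fold change of S1pr1 was -3.37 without OCA+VIP library 1 and -2.80 by limma-voom.

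Markers of other liver cell types were read in the same libraries, 12 of them endothelial. The summed level of the endothelial markers was 14.04 to 22.9 CPM with OCA+VIP and 5.76 to 11.6 CPM with DMSO+VIP, and 9 of the 12 had too few counts to be tested. Lyve1, Emcn and Erg had no counts in any library, and Cdh5, which encodes VE-cadherin, had 0 to 0.603 CPM with OCA+VIP and 0 to 2.29 CPM with DMSO+VIP. Unlike Cdh5, Pecam1 was higher with OCA+VIP, as the summed level was, with 4.08, 4.22 and 4.39 CPM in OCA+VIP libraries 1 to 3. In DMSO+VIP libraries 1 to 3 it had 1.31, 2.11 and 0 CPM (log2 fold change 1.89, adjusted p = 0.24 by edgeR). Kdr, with too few counts to be tested, had 0 to 4.13 CPM with OCA+VIP and 0 to 2.11 CPM with DMSO+VIP. Tek and Stab1 were tested and had log2 fold changes of 0.73 and 0.46 (adjusted p = 0.79 and 0.77 by edgeR). None of the 3 endothelial markers that could be tested passed in edgeR (0 also at an unadjusted p under 0.05). Summed markers of hepatocytes (9 genes, Cps1 at 0, 6 of 7 tested called higher) reached 166 to 301 CPM with OCA+VIP and 49.96 to 51.8 CPM with DMSO+VIP. Most of this sum was Alb, at 106 to 174 CPM with OCA+VIP and 38.0 to 42.2 CPM with DMSO+VIP. Cyp3a11 had too few counts to be tested. Markers of portal fibroblasts and mesothelium (8 genes, Thy1, Msln and Upk3b at 0) summed to 12.4 to 15.6 CPM with OCA+VIP and 34.2 to 59.1 CPM with DMSO+VIP, and Fbln2 was the member called lower. Fbln2 made up most of this sum, with means of 9.82 CPM with OCA+VIP and 39.9 CPM with DMSO+VIP. Wt1 went the other way, with 40 counts over the OCA+VIP group and 6 over the DMSO+VIP group, and was not tested. Macrophage markers (8 genes, Ptprc, Vsig4 and C1qa at 0) summed to 28.3 to 41.01 CPM with OCA+VIP and 15.3 to 30.3 CPM with DMSO+VIP. Most of this sum was Cd68, with means of 30.6 CPM with OCA+VIP and 20.5 CPM with DMSO+VIP (adjusted p = 0.19 by edgeR). Csf1r had a log2 fold change of -1.04 (adjusted p = 0.56 by edgeR). Cholangiocyte markers (6 genes, Krt7 and Cftr at 0) summed to 17.3 to 21.01 CPM with OCA+VIP and 6.16 to 14.9 CPM with DMSO+VIP. Krt19 had the highest mean among them, 12.2 CPM with OCA+VIP and 6.71 CPM with DMSO+VIP. Neither Krt19 nor Sox9, the markers tested, passed (adjusted p = 0.33 and 0.73 by edgeR). Lymphocyte markers (8 genes, 6 at 0, Cd79a called higher) summed to 5.88 to 10.4 CPM with OCA+VIP and 0 to 1.31 CPM with DMSO+VIP. Most of the lymphocyte sum with OCA+VIP was Cd79a, at a mean of 6.03 CPM. The part of these cell types in the differences of the signalling genes was not tested.

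S1pr3 (chromosome 13, 51408618 to 51422797, plus strand) encodes S1P3, a receptor that couples to Gi, Gq and G12/13 proteins. It was the receptor gene with the highest level, at 125, 188 and 149 CPM in OCA+VIP libraries 1 to 3, against 184, 177 and 221 CPM in DMSO+VIP libraries 1 to 3. OCA+VIP libraries 1 and 3 were the lowest of the 6, while OCA+VIP library 2 lay among the vehicle libraries. The log2 fold change of S1pr3 was -0.35 (SE 0.13, 95% interval -0.63 to -0.07) and did not pass the test (adjusted p = 0.096 by edgeR). It passed in 2 of 15 alternatives, without OCA+VIP library 2 (adjusted p = 0.016 by edgeR) and in DESeq2 (adjusted p = 0.042).

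S1pr2 (chromosome 9, 20965952 to 20976793, minus strand) encodes S1P2, which signals mainly through G12/13 proteins. It had 15.1, 16.9 and 9.65 CPM in OCA+VIP libraries 1 to 3 and 15.7, 15.5 and 21.7 CPM in DMSO+VIP libraries 1 to 3. Only OCA+VIP library 3 and DMSO+VIP library 3 stood away from a common level of about 15 to 17 CPM, in opposite directions. Its log2 fold change of -0.37 (SE 0.34, 95% interval -1.06 to 0.33, adjusted p = 0.54 by edgeR) did not pass, and the interval includes both a fall of more than 2-fold and a small rise.

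Lpar1 (chromosome 4, 58435252 to 58499403, minus strand), which encodes the LPA receptor LPA1, had 25.5, 12 and 42.5 counts in OCA+VIP libraries 1 to 3 and 6 in each DMSO+VIP library. These are 5.62, 1.21 and 7.32 CPM with OCA+VIP against 1.31, 2.11 and 1.61 CPM with DMSO+VIP. OCA+VIP library 2, the deepest, was lower than every vehicle library, and the other OCA+VIP libraries were higher than all of them. Rounded to whole steps of 6 counts, the OCA+VIP group had 13 steps and the DMSO+VIP group 3. Scaled to the group totals, the ratio of these steps was 2.38. Its 95% counting interval (exact Clopper-Pearson, from the steps) was 0.654 to 13.03, which includes no difference and covers counting error only. The gene was left out by the filter; with no filter its log2 fold change was 1.49 (adjusted p = 0.41 by edgeR).

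Sphk1 (chromosome 11, 116533238 to 116536675, plus strand) encodes sphingosine kinase 1, a mainly cytosolic enzyme that moves to the plasma membrane on activation. It was expressed at 206, 183 and 192 CPM in OCA+VIP libraries 1 to 3, against 134, 117 and 139 CPM in DMSO+VIP libraries 1 to 3. Every OCA+VIP library was higher than every vehicle library, and the gap between the groups exceeded the range within either. The means were 194 ± 11.6 CPM with OCA+VIP and 129.9 ± 11.7 CPM with DMSO+VIP (SD, n = 3 each). The log2 fold change was 0.56 (SE 0.13, 95% interval 0.29 to 0.82, adjusted p = 0.0054 by edgeR), or 1.47-fold. The call for Sphk1 held in all 15 alternative fits, including those without any 1 library (edgeR adjusted p at most 0.042). In GENCODE, Gm29292 on the opposite strand shares 4.02% of the Sphk1 exon bases, and its part in the Sphk1 counts was not tested.

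Sphk2 (chromosome 7, 45709463 to 45718002, minus strand) encodes the second sphingosine kinase, which is found largely in the nucleus, mitochondria and endoplasmic reticulum. Its levels were 67.4, 76.5 and 67.1 CPM in OCA+VIP libraries 1 to 3 and 43.0, 32.1 and 66.4 CPM in DMSO+VIP libraries 1 to 3. DMSO+VIP library 3 reached nearly the OCA+VIP level and the other vehicle libraries were well below it. The estimate equalled that of Sphk1 (log2 fold change 0.56) with a wider error (SE 0.20, 95% interval 0.13 to 0.98) and did not pass the test (adjusted p = 0.081 by edgeR); without DMSO+VIP library 3 the log2 fold change was 0.88 (adjusted p = 0.0088 by edgeR). It also passed in DESeq2, in limma-voom and with no filter on low counts. In GENCODE, genes on the opposite strand share 13.0% (Dbp) and 8.97% (Rpl18) of the Sphk2 exon bases, and whether counting used strand is not given in the sources used here. Dbp had 6.29 ± 2.28 CPM with OCA+VIP and 4.63 ± 4.10 CPM with DMSO+VIP, and Rpl18 had 319 ± 72.5 and 433 ± 57.2 CPM in the same order (SD, n = 3 each); neither passed the test, and their part in the Sphk2 counts was not tested.

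Enpp2 (chromosome 15, 54838901 to 54920146, minus strand), the autotaxin gene, had a count of 0 in all 6 libraries. A count of 0 allows up to 3 steps, or 18 counts, per group, which corresponds to 0.887 CPM over the OCA+VIP group and 1.61 CPM over the DMSO+VIP group. Spns2 (chromosome 11, 72451638 to 72489920, minus strand), the S1P exporter gene, had 0, 18 and 6 counts in OCA+VIP libraries 1 to 3 and 12, 3 and 3 counts in DMSO+VIP libraries 1 to 3. These sums of 24 and 18 counts lie at or close to that limit, and a difference was not detectable at this depth. In GENCODE, Mybbp1a on the opposite strand shares 3.21% of the Spns2 exon bases. Mybbp1a had means of 711 CPM with OCA+VIP and 683 CPM with DMSO+VIP, and its part in the Spns2 counts was not tested.

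Of the enzymes that remove S1P, Sgpl1 (chromosome 10, 61098642 to 61147684, minus strand), the lyase gene, had 540.3, 530.1 and 538 CPM in OCA+VIP libraries 1 to 3 and 495, 543 and 444 CPM in DMSO+VIP libraries 1 to 3. The OCA+VIP libraries agreed closely and fell inside the range of the vehicle libraries. Its log2 fold change was 0.10 (SE 0.12, adjusted p = 0.66 by edgeR) and the 95% interval of the difference was -0.16 to 0.36. Sgpp1 (chromosome 12, 75714248 to 75735729, minus strand), the S1P phosphatase gene of the endoplasmic reticulum, had 30.5, 57.4 and 46.0 CPM in OCA+VIP libraries 1 to 3, against 62.7, 62.5 and 59.2 CPM in DMSO+VIP libraries 1 to 3. All OCA+VIP libraries were lower than all vehicle libraries, but they differed widely among themselves. Its log2 fold change of -0.48 (SE 0.19, 95% interval -0.88 to -0.08) did not pass (adjusted p = 0.12 by edgeR), and it passed in 1 of 15 alternatives, without OCA+VIP library 2 (adjusted p = 0.046 by edgeR). Groups that do not overlap were found for 3 of the 7 tested genes (Sphk1 and Sphk2 higher, Sgpp1 lower), against 30.6% of all tested genes (16.8% higher and 13.9% lower).

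**Figure D2:**
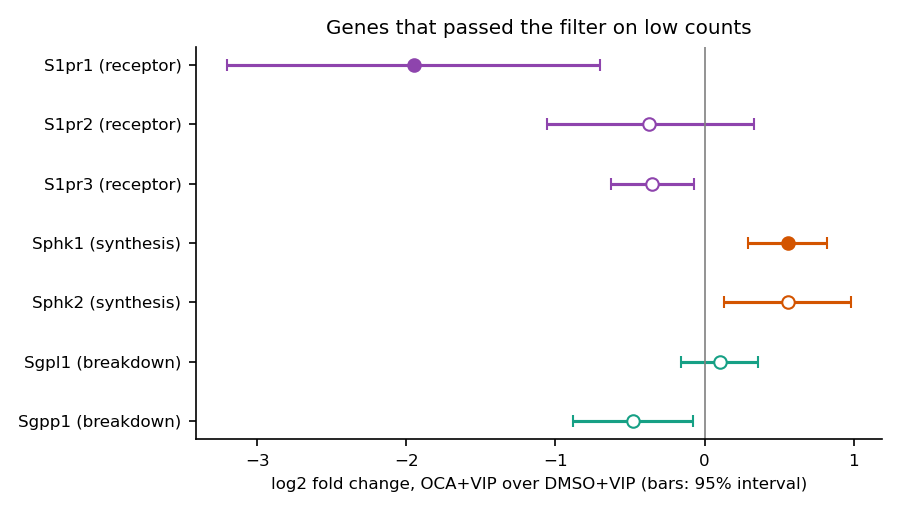
Log2 fold change of the 7 tested genes, OCA+VIP over DMSO+VIP, with the 95% interval of the edgeR fit (3 libraries per group). Filled points passed the test (S1pr1 at -1.95 and Sphk1 at 0.56) and open points did not; the receptor genes lie left of 0 and both kinase genes right of it.

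Levels were set against each other per length, as CPM per kilobase of exon (CPM per kb). Over the 6 libraries Sgpl1 was highest with a mean of 124.9 CPM per kb, followed by Sphk1 (92.1), S1pr3 (38.8), Sphk2 (16.6), Sgpp1 (15.99), S1pr2 (5.61), S1pr1 (3.76), Lpar1 (0.986), Spns2 (0.377) and Enpp2 (0). Sgpl1 lay above Sphk1, and Sphk1 above S1pr3, in each of the 6 libraries. Over all 6 libraries the ranges of Sphk2 and Sgpp1 overlapped, at 9.05 to 21.6 and 9.20 to 18.9 CPM per kb. Sphk2 was the higher of this pair in all 3 OCA+VIP libraries, at 18.9 to 21.6 CPM per kb against 9.20 to 17.3 for Sgpp1, while in DMSO+VIP libraries 1 and 2 Sgpp1 was higher (18.9 and 18.8, against 12.1 and 9.05 for Sphk2). S1pr2 and S1pr1 also overlapped over the 6 libraries. S1pr2 was higher than S1pr1 in all 3 OCA+VIP libraries and lower than it in DMSO+VIP libraries 1 and 3.

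Ratios within a library, which do not depend on scaling between libraries, describe receptors against enzymes. The summed level of S1pr1, S1pr2 and S1pr3 over that of Sphk1 and Sphk2 was 0.271, 0.387 and 0.289 in OCA+VIP libraries 1 to 3 and 0.598, 0.642 and 0.662 in DMSO+VIP libraries 1 to 3, per kb of exon. All OCA+VIP ratios were below all vehicle ratios, with means of 0.316 ± 0.0626 with OCA+VIP and 0.634 ± 0.0326 with DMSO+VIP (SD, n = 3 each). Taken apart, the receptors with Lpar1 included summed to 42.4 ± 5.87 CPM per kb with OCA+VIP and 55.96 ± 8.45 with DMSO+VIP, and the synthesis genes to 130.1 ± 5.54 and 87.3 ± 11.3 in the same order. The kinases over the breakdown enzymes Sgpl1 and Sgpp1 had ratios of 0.973, 0.863 and 0.888 in OCA+VIP libraries 1 to 3 and 0.636, 0.502 and 0.781 in DMSO+VIP libraries 1 to 3. Again no OCA+VIP library fell within the vehicle range, and the breakdown genes themselves summed to 143 ± 2.90 CPM per kb with OCA+VIP and 138 ± 12.5 with DMSO+VIP. These sums were formed from genes chosen with results known, and no test was made on them.

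**Figure D3:**
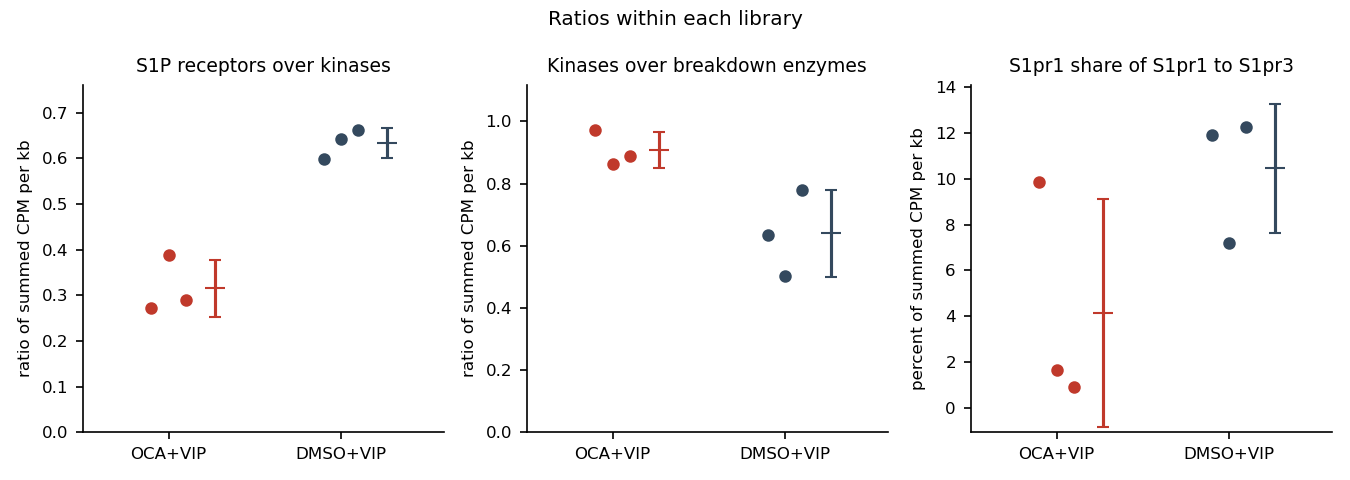
Ratios of summed CPM per kb of exon within each library (1 point per library, mean and SD beside them, n = 3 per group): S1pr1 to S1pr3 over both kinases, both kinases over Sgpl1 and Sgpp1, and the percentage of the S1P receptor sum that is S1pr1. The first ratio is 0.271 to 0.387 with OCA+VIP and 0.598 to 0.662 with DMSO+VIP, and the S1pr1 share overlaps between the groups.

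Within the S1P receptors, S1pr3 made up most of the sum in every library, at 75.6% to 89.8% with OCA+VIP and 75.8% to 81.4% with DMSO+VIP. S1pr1 contributed 9.85%, 1.64% and 0.924% in OCA+VIP libraries 1 to 3 and 11.9%, 7.20% and 12.3% in DMSO+VIP libraries 1 to 3. OCA+VIP library 1 lay within the range of the vehicle libraries and the other OCA+VIP libraries lay below it. The share of S1pr2 was 9.28% to 14.5% with OCA+VIP and 10.6% to 11.9% with DMSO+VIP. Between the kinases, Sphk1 held 84.7 ± 1.67% of the sum with OCA+VIP and 85.1 ± 3.73% with DMSO+VIP (SD, n = 3 each), a difference smaller than the spread.

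Genes that supply or use the same lipids were read from 3 lists. Of 33 genes for sphingoid bases, ceramide and sphingomyelin, 27 were tested; 1 rose, 3 fell and 23 did not pass, and their median log2 fold change was 0.05, where that of all tested genes was 0.00. These 4 calls among 27 genes are a share near the 11.8% called among all tested genes, so the members below are described singly. At an unadjusted edgeR p under 0.05 there were 13 of the 27 genes, and DESeq2 called 8 genes of the list. The share of all tested genes at that unadjusted threshold is not given here. Cerk, ceramide kinase, had 32.4, 71.7 and 44.3 CPM in OCA+VIP libraries 1 to 3 and 120.02, 117 and 110.4 CPM in DMSO+VIP libraries 1 to 3, a log2 fold change of -1.24 (SE 0.19, adjusted p = 0.00013 by edgeR). Asah1, the lysosomal acid ceramidase that releases the sphingosine used by the kinases, had 91.1, 109.7 and 98.1 CPM in OCA+VIP libraries 1 to 3 and 178, 158 and 183 CPM in DMSO+VIP libraries 1 to 3 (log2 fold change -0.81, SE 0.12, adjusted p = 0.00013 by edgeR). Cers4, a ceramide synthase, had 89.98, 81.4 and 87.3 CPM in OCA+VIP libraries 1 to 3 and 35.2, 54.9 and 37.8 CPM in DMSO+VIP libraries 1 to 3, a log2 fold change of 1.01 (SE 0.19, adjusted p = 0.00081 by edgeR). In each of these 3 genes the groups do not overlap, and each passed in all 15 alternatives. Sptssa, a small subunit of serine palmitoyltransferase, the first enzyme of sphingoid base synthesis, had 12.5, 15.2 and 17.0 CPM in OCA+VIP libraries 1 to 3 and 23.7, 39.1 and 31.9 CPM in DMSO+VIP libraries 1 to 3. Its log2 fold change was -1.10 (SE 0.28, adjusted p = 0.011 by edgeR), and the edgeR call was lost without OCA+VIP library 1 (adjusted p = 0.054) or DMSO+VIP library 2 (0.069).

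Of 17 genes for lipid phosphate phosphatases, carriers and other turnover steps, 8 were tested; 1 fell and 7 did not pass, and the median of their log2 fold changes was 0.03. That is 1 call among 8 genes, a share near the 11.8% of all tested genes. At an unadjusted edgeR p under 0.05 there were 2 of the 8 genes, and DESeq2 called 1 gene of the list. The member that fell, Plpp3, encodes a membrane phosphatase that removes extracellular LPA and S1P. It had 14.8, 24.8 and 15.3 CPM in OCA+VIP libraries 1 to 3, all below the 36.7, 43.1 and 28.0 CPM in DMSO+VIP libraries 1 to 3. Its log2 fold change was -0.98 (SE 0.26, adjusted p = 0.017 by edgeR), and the edgeR call was lost without OCA+VIP library 1 (adjusted p = 0.079) or 3 (0.091) and without DMSO+VIP library 1 (0.06) or 2 (0.083). Agk, an acylglycerol kinase of mitochondria, Plpp5 and Plpp1, related phosphatase genes, had log2 fold changes of -0.51, -0.57 and 0.26 and did not pass (adjusted p = 0.16, 0.31 and 0.51 by edgeR). Mtrex, on the other strand, shares 25.8% of the exon bases of Plpp1.

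Of 8 other S1P and LPA receptor genes, S1pr4 and Lpar3 had no counts, 3 could be tested and none passed in edgeR (0 also at an unadjusted p under 0.05) or in DESeq2; the median log2 fold change was -0.02. Lpar6, which encodes a receptor coupled to G12/13, was the most abundant, with 21.2 ± 2.46 CPM with OCA+VIP and 15.6 ± 2.10 CPM with DMSO+VIP (SD, n = 3 each), and its log2 fold change was 0.41 (adjusted p = 0.40 by edgeR). Per kb, Lpar6 averaged 7.45 CPM over the 6 libraries, above Lpar1 at 0.986. Lpar2 had 5.12 ± 3.36 CPM with OCA+VIP and 11.4 ± 6.46 CPM with DMSO+VIP (log2 fold change -1.18, adjusted p = 0.22 by edgeR). Gpr35, a receptor proposed to bind LPA, had 2.41 ± 0.303 CPM with OCA+VIP and 2.48 ± 2.21 CPM with DMSO+VIP (adjusted p = 0.99 by edgeR).

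**Figure D4:**
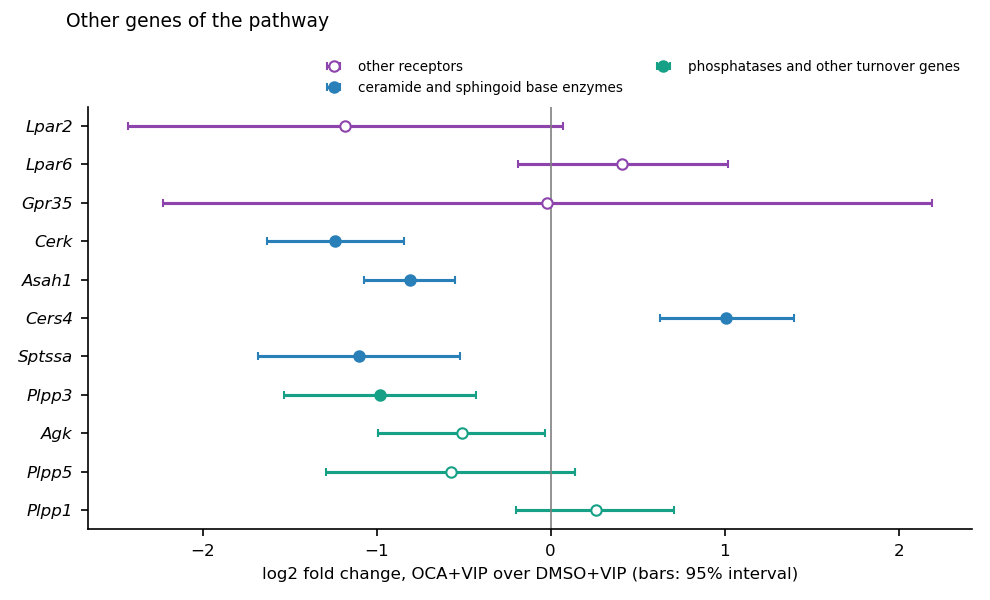
Log2 fold change of 11 other genes of the pathway, OCA+VIP over DMSO+VIP, with the 95% interval of the edgeR fit (3 libraries per group), coloured by list; filled points passed the test and open points did not. Cerk, Asah1, Sptssa and Plpp3 lie left of 0 and Cers4 right of it.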

How the data were processed

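Polyadenylated RNA of 6 samples was analysed from 1 table of exon counts in the layout that HOMER writes. The deposited values are expected counts per gene, not adjusted for library size per the file headers and name, in steps of 0.5, with 1 RefSeq transcript and its exon length for each gene. The submitters' processing notes name mm10, STAR, HOMER and DESeq2 without versions; use of strand and removal of duplicates are not given in the sources used here. Columns were put in groups by their names, and libraries are numbered as the columns are, since the titles carry letters instead, which were not matched to these numbers.

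The 10 genes and all lists were chosen with earlier results of these data known; 1 further list of genes and 1 receptor gene are not reported here. Rounded counts were fitted in edgeR 4.0.16 under R 4.3.3 (TMM, filterByExpr with a minimum count of 10 and total of 15, quasi-likelihood F test, two-sided, Benjamini-Hochberg adjustment over all 11286 tested genes, threshold 0.05, 4 residual degrees of freedom, common biological coefficient of variation 0.198). Standard errors and 95% intervals were derived from the F statistic. CPM are counts scaled to a column total of 1e+06, without TMM. Alternatives were other scalings and filters, DESeq2 1.42.0, limma-voom (limma 3.58.1), a replicate block, counts divided by 6, stricter (0.01) and looser (0.1) thresholds, and omission of 1 library at a time. The fitting code was tested on simulated counts. Genes named from a list are those past the threshold with a mean of at least 1 CPM, filled up to 4 by smallest p. Sequences are from RefSeq and exon overlaps from GENCODE. The limit for a count of 0 is 3 steps of 6 counts per group and, like the counting interval, covers counting error only. Tables and figures used Python 3.11.15, pandas 2.3.3 and matplotlib 3.10.9.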

Additional observations from a re-analysis of the deposited data

How the results depend on the processing

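The rise of Sphk1 and the calls of Cerk, Asah1 and Cers4 passed in each of the 15 alternative fits, and S1pr1 passed in 9 of the 14 that could test it, always with a negative sign. Over all tested genes, 646 were called higher and 682 lower; DESeq2 called 1111 and 1090, a threshold of 0.01 left 303 and 345, and leaving out a library gave 310 to 745 higher and 395 to 733 lower. Of the 10 signalling genes, 2 were called higher in DESeq2, limma-voom, with no filter and at a threshold of 0.1, while 0 were called lower with counts divided by 6, where S1pr1 was filtered out, and at 0.01, and 2 at 0.1. Leaving out a library gave 1 to 2 higher and 0 to 2 lower; none were lower without OCA+VIP library 3 or without DMSO+VIP library 1 or 3. The ceramide list had 8 calls in DESeq2 and 3 to 4 on leaving out a library. The phosphatase and turnover list had 0 calls at 0.01 and 0 to 1 on leaving out a library. The cause of these differences was not tested.

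The numbers in the column names were tried as a replicate block: deviations from the group means of libraries with the same number correlated at -0.0353, -0.0501 and 0.0303, so the numbers are not taken as pairs. With the block, 549 genes were higher and 569 lower. Gpr35, with a log2 fold change of -0.02, had the opposite sign with library-size scaling (0.01), limma-voom (1.43), the replicate block (0.41) and without OCA+VIP library 3 or DMSO+VIP library 2 or 3; the range on leaving out a library was -0.65 to 0.61. The S1pr1 share of the S1P receptor sum differed by -6.32 percentage points (OCA+VIP minus DMSO+VIP), by -4.62 without division by exon length and by -9.18 to -4.71 on leaving out a library. Depth limits Lpar1, Spns2 and Enpp2 most, at 0 to 80 counts per group.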
